A study of Mus musculus with 5 samples.

Results

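The pericentral hepatocytes described here were 6920 barcodes of the 47473 in a targeted single-cell RNA sequencing series of mouse liver. They were chosen by measured values. A barcode, taken as 1 cell, first had to hold at least 300 UMIs (unique molecular identifiers, each a counted molecule) of the 64 panel genes, which left 37721 barcodes. Within each library, barcodes at or above the 95th percentile of the Glul share of UMIs other than Alb were set aside as Glul-high. Of the others, those at or above the library's 80th percentile of a score were kept. The score was log2 of the ratio of Cyp2e1 to Cyp2f2 UMIs, with 0.5 added to each. Kept barcodes numbered 1246, 954, 1510, 1423 and 1787 in the 0, 8, 16, 24 and 30 h libraries. That was 17.6% to 18.7% of the barcodes of 300 or more UMIs. Series of 5 values below follow the same order of libraries. The remaining barcodes served as 3 reference groups: 1891 Glul-high, 7430 at the periportal end (at or below the 20th percentile of the score) and 21480 intermediate.

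All mice were wild-type C57BL/6J males on normal chow, and total hepatocytes isolated from liver were loaded. Every group shared 3 days of training with 16 h without food and 8 h with food, and drinking water with 20% sucrose on the day of the experiment. The fed library (0 h) was taken at clock hour 13 after 4 h of feeding, and the fasted libraries at clock hours 21 (8 h), 5 (16 h), 13 (24 h) and 19 (30 h) after food and sucrose water were removed. Each time point was 1 library, and the sources used here do not give the number of mice behind it, so no difference below has a replicate check. The 0 h and 24 h libraries were taken at the same hour of day, and for every other pair fasting time and clock hour cannot be told apart.

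Blood enters the liver lobule beside the portal tracts and drains into a central vein, and hepatocytes along that path divide metabolic work between them. Wnt signals from the central vein maintain the pericentral program, which includes drug metabolism by Cyp2e1 and the first steps of bile acid synthesis, while the innermost cells make glutamine with Glul. Gluconeogenesis and amino acid use are known mainly from the periportal side, and fasting is known to switch hepatocytes from making fat to making glucose.

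The stretches upstream of 3 genes that were higher toward the pericentral side are shown here to locate 1 short motif, CTTTGA (reverse TCAAAG). These are the core letters read by the TCF/LEF factors of Wnt signaling. Cyp2e1 itself entered the score that chose the barcodes. Cyp27a1 and Hsd3b7 fell short of the zone call used below, at 8 h without Alb. The stretches come from RefSeq on GRCm38.p6, run 5′ to 3′ on the plus strand and stop before the GENCODE gene start. Capitals mark the motif. Promoters of 3 of 5 genes looked for were found, and Gulo and Cyp7a1 are named only.
Cyp2e1, chr7:140763569-140763738: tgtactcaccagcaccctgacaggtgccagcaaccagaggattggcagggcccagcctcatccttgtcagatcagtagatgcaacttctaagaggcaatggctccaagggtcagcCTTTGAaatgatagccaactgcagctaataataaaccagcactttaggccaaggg
Cyp27a1, chr1:74713285-74713534: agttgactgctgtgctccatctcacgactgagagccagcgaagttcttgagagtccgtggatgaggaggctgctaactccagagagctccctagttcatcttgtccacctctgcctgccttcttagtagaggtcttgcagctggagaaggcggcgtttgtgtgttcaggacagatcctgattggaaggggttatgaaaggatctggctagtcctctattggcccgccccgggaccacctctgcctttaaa
Hsd3b7, chr7:127800359-127800603: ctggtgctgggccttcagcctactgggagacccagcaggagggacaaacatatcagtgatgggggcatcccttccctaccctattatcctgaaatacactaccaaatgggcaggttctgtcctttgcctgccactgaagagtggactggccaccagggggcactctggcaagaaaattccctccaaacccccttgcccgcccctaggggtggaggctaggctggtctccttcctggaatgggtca
The Cyp2e1 stretch held 1 match, 135 bases before the RefSeq start, which lies past the end of the printed stretch. The other 2 stretches held 0 matches on either strand. Of 32851 RefSeq windows of 250 bases, 13.8% held a match. The stretches shown were 170 (Cyp2e1), 250 (Cyp27a1) and 245 (Hsd3b7) bases long, so that share is not matched to their length. A match of these letters is a description and not a binding site.

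Depth differed between libraries. They held 3979629 to 11288725 panel UMIs, and the pericentral barcodes 491706 to 1567551, with median UMIs per barcode of 736.5, 469.5, 521.5, 926 and 865. The 8 h library stood apart: 42.5% of its barcodes reached 300 UMIs, against 87.3% to 94.5% in the other 4. Levels below are CPM, UMIs per 1000000 panel UMIs of the barcodes summed. Alb, the albumin gene, took 50.7% to 59.9% of pericentral UMIs and 72.9% to 78.8% of periportal ones, so CPM differences between zones include that gap. Intervals are 95% and cover counting error only. Of 47235 distinct barcode sequences 238 occurred in more than 1 library, and 3 of 6917 within the pericentral barcodes.

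The label was checked against pericentral markers. Cyp2e1, an ethanol- and drug-oxidizing enzyme that chose the barcodes, stood at 61316, 62686, 95756, 119769 and 167225 CPM. The periportal marker Cyp2f2, another cytochrome P450 of the rule, stood at 10858, 1902, 5607, 2969 and 4151 CPM. The score needed for entry was -1.07, 2.81, 1.35, 3.77 and 2.55. In the fed library it thus admitted 247 barcodes with no excess of Cyp2e1 over Cyp2f2, and 80.2% of the fed members had a score above 0, against all members in each fasted library. The fed set is the reference of every change over time below, so those changes were also taken with a common score cut of 3. Just outside the threshold (78th to 80th percentile) Cyp2e1 stood at 7188, 32734, 30193, 71316 and 70951 CPM. Just inside it (80th to 82nd percentile) the values were 11722, 39229, 40907, 81855 and 82578 CPM.

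Gulo, the last enzyme of vitamin C synthesis (chr14:65986786-66009207, minus strand), took no part in the choice. It stood at 5181, 4909, 6728, 5726 and 4480 CPM in the pericentral barcodes. At the periportal end it stood at 239, 313, 404, 404 and 167 CPM. The lowest pericentral value was above the highest periportal one. Glul, the glutamine synthase gene, stood at 2673, 2192, 894, 2131 and 1846 CPM in the pericentral barcodes and at 7979 to 30522 CPM in the Glul-high ones. Of the pericentral barcodes 24.2%, 40.4%, 61.7%, 25% and 30.7% held no Glul UMI. Of the Glul-high barcodes only 25.2% to 47.3% passed the score threshold, so a high Glul share and a high Cyp2e1 score often fell on different barcodes. The Glul-high label rested on few counts, with median Glul UMIs per barcode of 6, 3, 2, 7 and 5. Cyp2f2 stood at 18607, 12986, 13937, 7770 and 15884 CPM in that group, above the pericentral level in every library. The Glul-high barcodes therefore cannot be read as the innermost cells alone. Of these markers Gulo alone took no part in the choice, and it was higher in the pericentral barcodes at all 5 times.

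**Figure D1:**
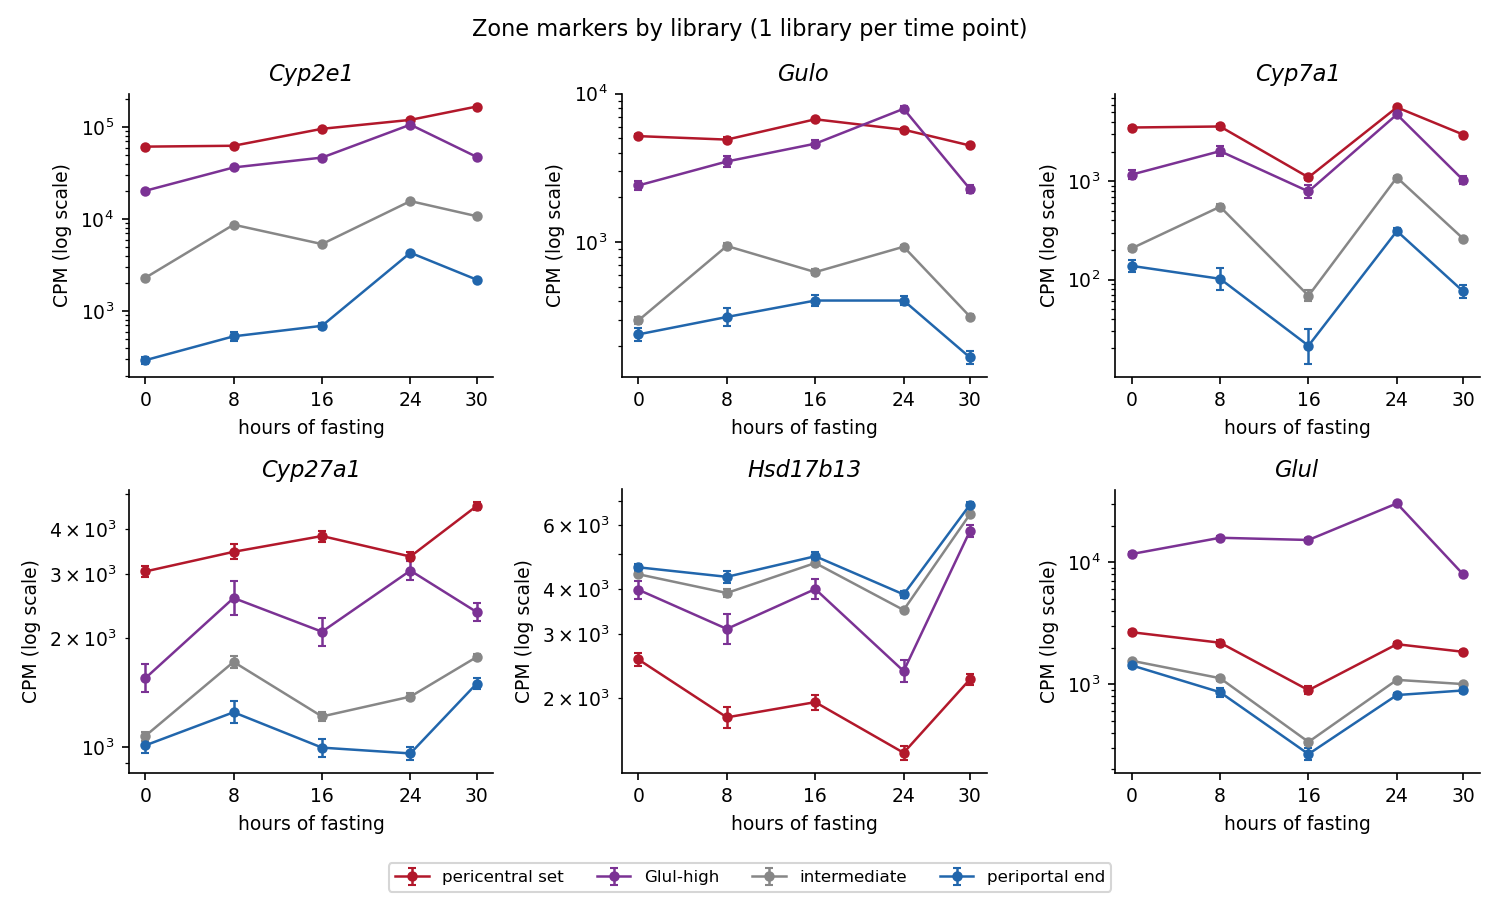
Levels (CPM, log axes) of 6 zone markers against hours of fasting in the 4 groups of barcodes, with 95% counting intervals and 1 library per time point. Gulo and Cyp7a1 in the pericentral set lay far above the periportal end at every time, and Hsd17b13 lay below it.

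Of 20 listed markers of endothelial, immune, mesenchymal and bile duct cells, 6 were on the panel (Cdh5, Mrc1, Cd68, Ptprc, Pdgfra and Pdgfrb). Their summed level was 43.8, 50.8, 43.7, 57.9 and 20.4 CPM in the pericentral barcodes, and 20.5 to 55.8 CPM at the periportal end. All 6 were detected in the pericentral barcodes of every library, at 25 to 77 UMIs in all. Their part in the results was not tested.

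Genes of bile acid synthesis did not move together during fasting in the pericentral barcodes. The panel list held 15 genes, of which 14, 13, 14 and 14 had at least 100 UMIs in the fasted and fed libraries together at 8, 16, 24 and 30 h. A change from 0 h was called past 2-fold, with no test. By that measure 2, 2, 0 and 1 of these genes were higher and 0, 1, 1 and 1 lower. Over all panel genes 15.7% of 51, 12.0% of 50, 5.88% of 51 and 15.4% of 52 were higher, and 19.6%, 22.0%, 25.5% and 26.9% were lower. The median log2 change of the list was 0.11, 0.38, 0.10 and 0.024, beside -0.29, 0.082, -0.047 and -0.11 over all tested genes.

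Cyp7a1, the rate-limiting enzyme of the classical route from cholesterol to bile acids, lies at chr4:6265612-6275633 on the minus strand. It stood at 3519, 3604, 1096, 5641 and 2982 CPM in the pericentral barcodes. The 16 h library was low and the 24 h library high. The 16 h level was 3.21-fold below the fed one (log2 change -1.68, -1.79 to -1.58). From 16 h to 24 h it was 5.15-fold higher (log2 change 2.36, 2.26 to 2.47). At 24 h, at the same clock hour as the fed library, the log2 change from 0 h was 0.68 (0.62 to 0.74), but -0.046 with a common score cut of 3. With each barcode thinned to 300 UMIs, 55.1%, 58.5%, 24.4%, 75% and 50.9% of pericentral barcodes held a Cyp7a1 UMI. At the periportal end, where median depth was higher, 3.70%, 2.24%, 0.752%, 8.34% and 2.74% did. Before thinning the shares were 75.4%, 70.5%, 34.5%, 93.3% and 77.2%, and 1.25% to 32.3% at the periportal end. These shares follow the mean level, and a barcode without a UMI may still express the gene.

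Cyp8b1, the enzyme that sets the cholic acid share, stood at 3648, 7818, 4861, 5765 and 11455 CPM. It was above the fed level in all 4 fasted libraries, with log2 changes of 1.10, 0.41, 0.66 and 1.65. The 8 h change was 0.45 as UMIs per barcode and 0.83 with a common score cut of 3, which ends that call. The 16 h change of Cyp8b1 was -0.15 per barcode. Its 30 h change (1.60 to 1.70) lay between 1.40 and 1.88 under every alternative tried.

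Hsd3b7, which acts early in the ring modification shared by both routes, stood at 3538, 6880, 11739, 3721 and 5777 CPM. It was highest at 16 h, when Cyp7a1 was lowest. Its 16 h level was 3.32-fold the fed one (log2 change 1.73, 1.67 to 1.79), and its 24 h level differed from the fed one by 0.072 on the log2 scale. Exons of Gm49388 overlap Hsd3b7 on the same strand, so its UMIs can include those of that gene. Cyp27a1, the mitochondrial enzyme of the alternative route, moved little, from 3049 CPM at 0 h to 4624 CPM at 30 h. Cyp7b1, which follows it in that route, stood at 2725, 1676, 4272, 1606 and 2066 CPM and was 2.55-fold higher at 16 h than at 8 h. Its 8 h change from 0 h was -0.70 in CPM and -1.35 per barcode, and its 24 h change -0.76 in CPM and -1.30 at the lowest of the alternatives.

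Cyp2c70, the mouse enzyme that makes muricholic acids, stood at 5501, 6551, 8046, 2347 and 1157 CPM. The 24 h and 30 h libraries were low. Its log2 change from 0 h was -1.23 (-1.29 to -1.17) at 24 h and -2.25 (-2.33 to -2.17) at 30 h. Nr0b2, the SHP repressor through which bile acids restrain their own synthesis, stood at 465, 334, 1160, 614 and 705 CPM. It was highest in the library in which Cyp7a1 was lowest, with a log2 change of 1.32 (1.16 to 1.48), or 0.76 as UMIs per barcode. Baat and Slc27a5, which act in bile acid conjugation, stayed within 2-fold of the fed level in CPM at all 4 times. So did Akr1d1, which reduces the steroid ring, and Nr1h4, the bile acid receptor FXR. Per barcode the log2 change of Slc27a5 at 8 h was -1.2. Cyp46a1, a cholesterol 24-hydroxylase, was called higher at 8 h on 79 UMIs against 62 (161 against 61.7 CPM), but its change was 0.73 per barcode.

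**Figure D2:**
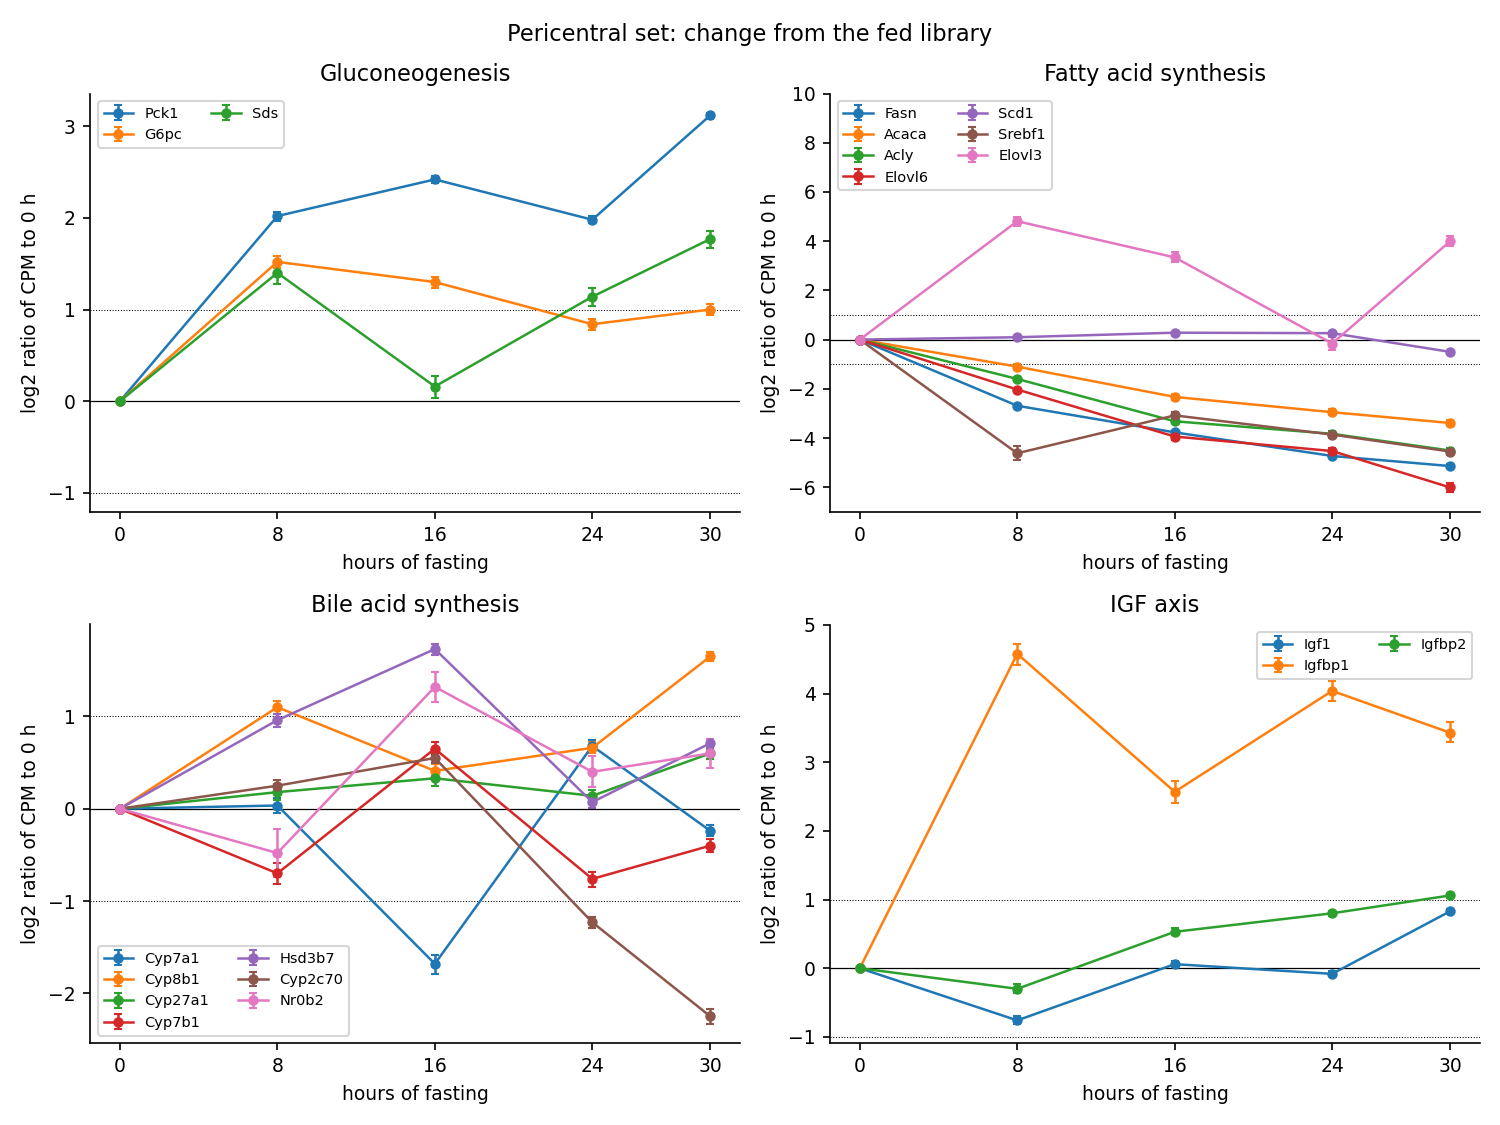
Log2 ratio of CPM to the fed library against hours of fasting in the pericentral barcodes for genes of 4 groups, with 95% counting intervals and dotted lines at 2-fold. Pck1 and Igfbp1 lay above the upper line in all 4 fasted libraries, and Fasn, Acaca, Acly, Elovl6 and Srebf1 below the lower one.

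Gluconeogenesis genes were higher in the fasted pericentral barcodes. Pck1, which commits oxaloacetate to glucose synthesis, stood at 6562, 26534, 35141, 25915 and 56910 CPM. The fed value was the lowest and the 30 h value the highest, with fasted log2 changes of 2.02, 2.42, 1.98 and 3.12 (3.08 to 3.15 at 30 h). Thinned to 300 UMIs, 75.2% of fed pericentral barcodes held a Pck1 UMI (90.4% before thinning), and 98.6%, 99.7%, 99.4% and 99.9% of the fasted ones. The median thinned count per barcode was 1, 7, 10, 7 and 17, with an interquartile range of 11.0 to 22.0 at 30 h. Nearly every fasted barcode held Pck1 UMIs, and counts spread between barcodes beyond a variance equal to the mean, with a variance to mean ratio of 2.53, 2.94, 2.09, 1.87 and 3.85.

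G6pc, which releases free glucose, stood at 3083, 8814, 7568, 5512 and 6159 CPM. It was highest at 8 h, unlike Pck1, and its log2 changes were 1.52, 1.30, 0.84 and 1.0. As UMIs per barcode they were 0.87 at 8 h and 0.73 at 16 h, which ends both calls. Sds, a serine dehydratase that feeds amino acid carbon into the pathway, stood at 1095, 2884, 1221, 2416 and 3720 CPM. It was near the fed level at 16 h and higher in the other 3 fasted libraries, with log2 changes of 1.40, 0.16, 1.14 and 1.77. The 8 h change was 0.75 per barcode. Of the 3 genes of the list on the panel, 3, 2, 2 and 2 passed 2-fold higher at 8, 16, 24 and 30 h, and 0 lower. The share higher over all tested panel genes was 15.7%, 12.0%, 5.88% and 15.4%. The list medians were 1.52, 1.30, 1.14 and 1.77.

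Genes of fatty acid synthesis were lower in every fasted library. Of 15 tested genes of fatty acid and triglyceride synthesis 7, 7, 8 and 9 were over 2-fold lower at 8, 16, 24 and 30 h, and 2, 1, 0 and 1 higher. Over all tested panel genes, this list included, 19.6%, 22.0%, 25.5% and 26.9% were lower. The shares higher were 15.7%, 12.0%, 5.88% and 15.4%. The list medians were -0.74, -0.88, -1.06 and -1.22. Fasn, the fatty acid synthase, stood at 34010, 5253, 2498, 1278 and 964 CPM. Each value was below the one before it, and the 30 h level was 35.3-fold below the fed one. Elovl6, which elongates the palmitate that Fasn makes, stood at 11286, 2762, 733, 487 and 175 CPM and was 64.3-fold lower at 30 h (log2 change -6.01, -6.19 to -5.83). Acly and Acaca, which supply acetyl-CoA and malonyl-CoA, were also lower at every step, from 24256 to 1067 CPM and from 3494 to 333 CPM. Srebf1, a transcription factor of lipid synthesis, stood at 5292, 216, 624, 363 and 226 CPM, with its lowest value already at 8 h. Exons of Mir6922 overlap Srebf1 on the same strand. Gpam, which starts triglyceride synthesis, stood at 11156, 3162, 4119, 3018 and 2378 CPM.

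Not every gene of the list followed. Scd1, which desaturates stearate, stood at 118468, 126517, 143926, 141798 and 83772 CPM and stayed within 2-fold of the fed level. It came second to Alb in pericentral CPM at 0, 8, 16 and 24 h, and behind Alb and Cyp2e1 at 30 h, while Fasn was far lower in every fasted library. Elovl3, an elongase of very long chains, stood at 246, 6882, 2491, 219.6 and 3941 CPM. It was high at 8, 16 and 30 h and at the fed level at 24 h, the other library of clock hour 13. Its log2 changes were 4.81 (4.62 to 5.00), 3.34, -0.16 (-0.41 to 0.088) and 4.00. From 16 h to 24 h Elovl3 was 11.3-fold lower, and from 24 h to 30 h it was 17.9-fold higher. Thinned to 300 UMIs, 6.98%, 80%, 48.5%, 7.03% and 59.8% of pericentral barcodes held an Elovl3 UMI (16.3%, 90.5%, 64.2%, 17.1% and 84.9% before thinning). At the periportal end 1.66%, 44.2%, 10.3%, 1.05% and 21.9% did (4.51% to 64.7% before thinning). Elovl5, which elongates polyunsaturated chains, was 1.46 higher on the log2 scale at 8 h, or 0.81 per barcode.

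In the insulin-like growth factor group Igfbp1 was over 2-fold above its fed level at every fasted time. Igfbp1, a secreted binding protein that insulin represses, stood at 379, 9038, 2250, 6235 and 4099 CPM. All 4 fasted values were above the fed one, by 23.8-fold at 8 h and 5.93-fold at 16 h. Thinned to 300 UMIs, 8.99%, 82.5%, 44.4%, 77.5% and 64.5% of pericentral barcodes held an Igfbp1 UMI (19.2%, 90.4%, 62.8%, 94.5% and 87.5% before thinning). Periportal barcodes gave 5.13%, 49.6%, 26.6%, 56.1% and 39.8% (18.3% to 92.6% before thinning). Igfbp2, a second binding protein, stood at 6946, 5658, 10022, 12076 and 14521 CPM and passed 2-fold at 30 h only (log2 change 1.06, 0.93 without Alb in the denominator). Igf1 itself stood at 11820, 6990, 12312, 11166 and 21021 CPM and stayed within 2-fold of the fed level in CPM. Its log2 change at 8 h was -0.76 in CPM and -1.40 per barcode, and at 30 h 0.83 in CPM and 1.06 without Alb and the other rule genes in the denominator. Of the 3 tested genes of this list 1, 1, 1 and 2 were higher at 8, 16, 24 and 30 h, and 0 lower. The share higher over all tested panel genes was 15.7%, 12.0%, 5.88% and 15.4%.

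Across all lists, 50 panel genes could be compared at all 4 fasted times. Of these, 2 were over 2-fold higher at every time (Pck1 and Igfbp1) and 7 over 2-fold lower, among them Fasn, Acaca, Acly, Elovl6, Gpam and Srebf1. A further 22 never passed 2-fold in CPM, among them Gulo, Cyp27a1, Igf1 and Scd1. Actb, the beta-actin gene, was itself lower at 24 h and 30 h, by 1.5 and 1.13 on the log2 scale, so it is no fixed reference here. As UMIs per barcode, the median log2 change over tested genes was -0.93 at 8 h and -0.48 at 16 h, beside -0.29 and 0.082 in CPM. The 8 h counts then became 3 higher and 23 lower, in place of 8 and 10.

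The pericentral barcodes were next set against the periportal end of the same libraries. A gene was called where it differed by over 1.5-fold the same way in CPM, in CPM without Alb and in UMIs per barcode, in all 5 libraries. The 4 genes used in choosing barcodes (Cyp2e1, Cyp2f2, Glul and Alb) were left out. Of 44 genes, 3 were higher (6.82%) and 1 lower (2.27%). Since the zones were cut from the same barcodes, these are descriptions. In CPM alone 33 of the 44 were higher in every library, and without Alb 25 of the 44 were lower, so the choice of denominator set the sign for many genes.

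Cyp7a1 was among the 3 genes higher in the pericentral barcodes on every scale. Its level at the periportal end was 138, 102, 21.3, 312 and 76.0 CPM. The pericentral excess was 25.5-, 35.3-, 51.5-, 18.1- and 39.2-fold in CPM, and at least 8.80-fold on any scale in any library. The Gulo excess was 14.2- to 26.8-fold in CPM and at least 6.90-fold on any scale. Elovl3 was also higher, with a CPM excess of 2.98- to 6.91-fold and a smallest excess of 1.57-fold, at 8 h without Alb. With the 8 h library left out the count of higher genes was 5, adding Hsd3b7 and Cyp27a1. At 8 h without Alb, the excess of Hsd3b7 was 1.42-fold and that of Cyp27a1 1.47-fold.

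Hsd17b13, a lipid droplet dehydrogenase, was the gene lower in the pericentral barcodes, at 2557, 1769, 1949, 1412 and 2253 CPM. The periportal end stood at 4597, 4327, 4933, 3869 and 6845 CPM. The deficit was 1.80- to 3.04-fold in CPM and widest at 30 h. Pck1 and G6pc were within 1.5-fold between the zones in CPM in every library. Without Alb Pck1 was 1.67- to 2.30-fold lower in the pericentral barcodes. Sds was lower on every scale in every library, at 1095 against 1781 CPM at 0 h and 3720 against 8118 CPM at 30 h, but passed 1.5-fold on all 3 scales only at 0, 16 and 30 h.

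Against the 21480 intermediate barcodes 2 of 47 genes were higher (4.26%, Cyp7a1 and Gulo) and 1 lower (2.13%, Hsd17b13). Against the Glul-high barcodes 0 of 44 were higher (0%) and 1 was lower (2.27%, again Hsd17b13). That group was mixed in zone. At 0 h its Cyp2e1 stood at 20307 CPM against 61316 CPM in the pericentral barcodes. Its Cyp2f2 then stood at 18607 CPM against 22199 CPM at the periportal end. Comparisons with it are therefore not comparisons with the innermost cells alone. Gulo stood at 2410, 3495, 4608, 7918 and 2281 CPM in the Glul-high barcodes. The pericentral set was above them except at 24 h, when the Glul-high level was the higher. Cyp7a1 stood at 1169, 2024, 788, 4779 and 1028 CPM there, below the pericentral level in every library. Without Alb in the denominator its 16 h order turned, at 2432 CPM in the Glul-high barcodes against 2320 CPM in the pericentral ones.

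**Figure D3:**
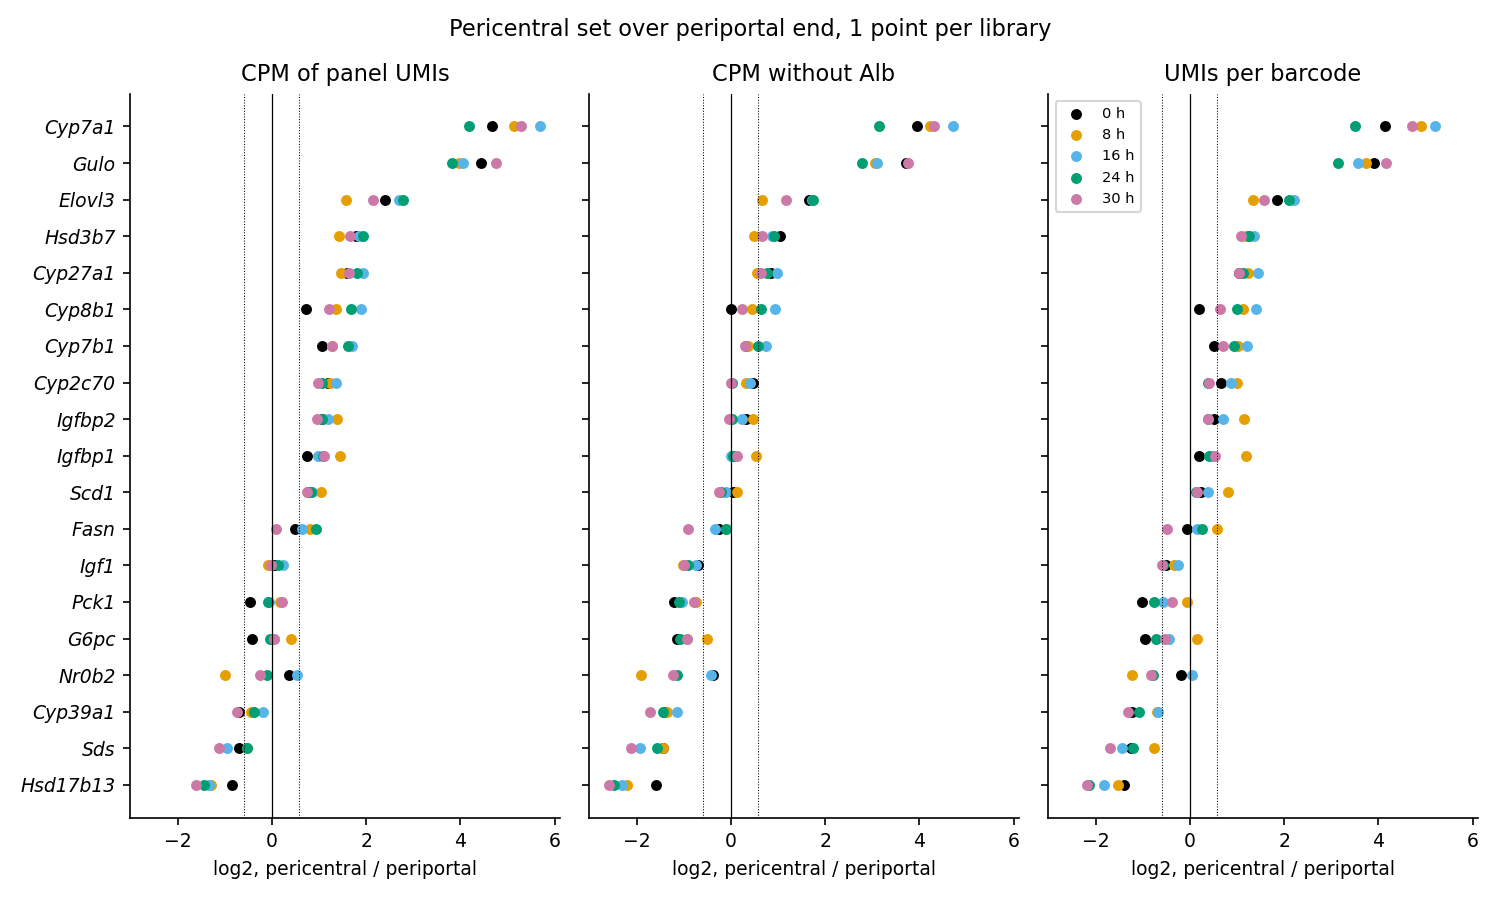
Log2 ratio of the pericentral barcodes to the periportal end for 19 genes on 3 scales, with 1 point per library and dotted lines at 1.5-fold. Cyp7a1, Gulo and Elovl3 lay right of the upper line and Hsd17b13 left of the lower line on every scale in every library. Pck1 changed side between scales at 8 and 30 h, and G6pc at 8, 16 and 30 h.

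The set was not uniform along its own score. Members at or above the 90th percentile were compared with those between the 80th and 90th. Of 39 named genes outside the rule, 7 were higher in the upper bin on all 3 scales in all 5 libraries (17.9%) and 4 lower (10.3%), by any amount. The 7 were Gulo, Elovl3 and the bile acid synthesis genes Cyp7a1, Cyp8b1, Cyp27a1, Cyp7b1 and Hsd3b7. Of the same bile acid list Baat, Akr1d1, Slc27a5, Cyp2c70, Nr0b2, Nr1h4, S1pr2 and Cyp46a1 were mixed, and Cyp39a1 was lower. In CPM, Gulo was higher in the upper bin by 1.89, 0.43, 0.84, 0.44 and 1.02 on the log2 scale, and Cyp7a1 by 1.37, 0.57, 0.82, 0.31 and 0.65. Both differences were widest in the fed library, whose lower bin had a median score of 0.41 against 2.89 to 4.44 elsewhere. The 4 lower genes were Hsd17b13, Sds, Acly and Cyp39a1. Pck1 differed little, by 0.20, -0.034, -0.048, -0.10 and -0.11 in CPM.

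Changes over fasting were then compared between the pericentral barcodes and the periportal end. The periportal end shifted between libraries too. Its score cut was -4.25, -3.17, -3.23, -1.14 and -2.50, and its Cyp2e1 level 293, 533, 693, 4312 and 2199 CPM. The common score cut of 3 redrew the pericentral side only. The part of this shift in the zone ratios above and the differences below was not tested. A difference was called where the 2 log2 changes from 0 h lay more than 1 apart. Of 51, 50, 51 and 52 genes 2, 2, 3 and 3 did so at 8, 16, 24 and 30 h (3.92%, 4.00%, 5.88% and 5.77%). Cyp2f2 of the rule was among them at 8, 24 and 30 h and Cyp2e1 at 24 and 30 h, which leaves 5 differences outside the rule. They were Nr0b2 at 8 h, Cyp8b1 and Cyp7a1 at 16 h, S1pr2 at 24 h and Elovl6 at 30 h.

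Nr0b2 was lower at 8 h than at 0 h in the pericentral barcodes (334 against 465 CPM) and higher at the periportal end (660.3 against 361 CPM). The log2 changes were -0.48 (-0.74 to -0.22) and 0.87 (0.68 to 1.06), a difference of -1.35 (-1.66 to -1.03). It stayed between -1.86 and -1.05 under all 11 alternatives. The alternative without a gene minimum leaves such a difference unchanged by construction, here and in the tallies of 11 below. The opposite directions did not hold as UMIs per barcode, where Nr0b2 was lower at 8 h in both groups. Those values were 0.172 against 0.375 in the pericentral barcodes and 0.403 against 0.425 at the periportal end. Both groups lay above their fed level at 16, 24 and 30 h. Cyp8b1 was higher at 16 h in the pericentral barcodes (4861 against 3648 CPM) and lower at the periportal end (1302 against 2200 CPM), a difference of 1.17 (1.06 to 1.28). Under the alternatives it ran from 0.83 to 1.23 and passed 1 in 7 of 11. As UMIs per barcode Cyp8b1 too was lower at 16 h in both groups. It stood at 2.65 against 2.94 in the pericentral barcodes and at 0.996 against 2.59 at the periportal end.

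The other 3 differences were smaller or rested on few counts. Cyp7a1 at 16 h was lower in both zones, by 1.68 on the log2 scale in the pericentral barcodes and 2.70 at the periportal end. The difference of 1.01 (0.42 to 1.61) rested on 26 periportal UMIs at 16 h and passed 1 in 3 of 11 alternatives. S1pr2, a receptor for conjugated bile acids, differed by 1.09 (0.51 to 1.67) at 24 h, at 98.5 CPM in the pericentral barcodes, and passed 1 in 4 of 11. Elovl6 at 30 h differed by -1.04 (-1.25 to -0.83), with the lower level relative to fed in the pericentral barcodes, and passed 1 in 8 of 11.

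Changes of Pck1 and G6pc were larger on the pericentral side without passing that mark, and those of Sds were not. Pck1 stood at 9056, 23475, 36830, 27333 and 49226 CPM at the periportal end. Its change from 0 h was larger in the pericentral barcodes by 0.64, 0.40, 0.39 and 0.67. For G6pc the differences were 0.82, 0.46, 0.37 and 0.46, all with intervals above 0. Without Alb in the denominator the differences shrank to 0.46, 0.16, 0.085 and 0.42 for Pck1 and to 0.64, 0.23, 0.07 and 0.21 for G6pc. For Sds they were 0.18, -0.25, 0.18 and -0.42 in CPM, and -0.0014, -0.49, -0.12 and -0.67 without Alb. In the fed library Pck1 and G6pc were lower in the pericentral barcodes than at the periportal end (6562 against 9056 CPM and 3083 against 4116 CPM). At 30 h their levels were 56910 against 49226 CPM and 6159 against 5983 CPM. This change of order was seen in CPM only. Without Alb in the denominator both were still lower in the pericentral barcodes at 30 h, Pck1 at 115352 against 197395 CPM and G6pc at 12484 against 23991 CPM.

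**Figure D4:**
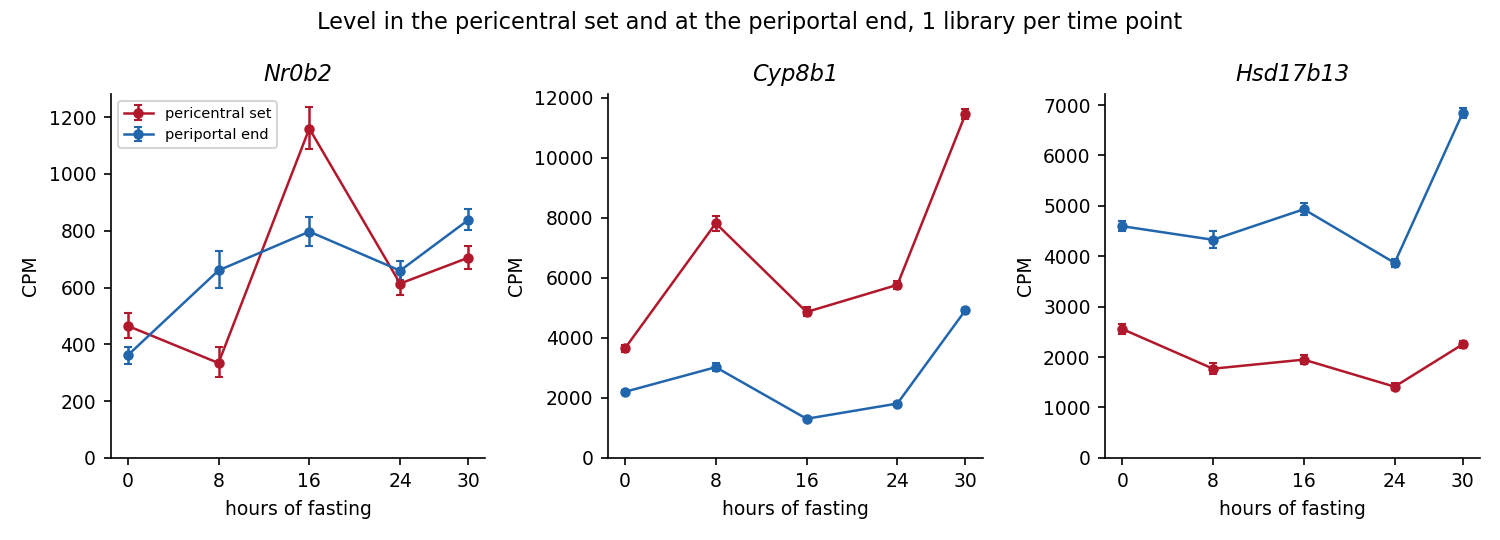
Levels (CPM) of Nr0b2, Cyp8b1 and Hsd17b13 against hours of fasting in the pericentral set and at the periportal end, with 95% counting intervals and 1 library per time point. In CPM, Nr0b2 at 8 h lay below its fed level in the pericentral set and above it at the periportal end. Cyp8b1 at 16 h showed the reverse pair of directions. As UMIs per barcode (not drawn) Nr0b2 at 8 h and Cyp8b1 at 16 h were lower in both groups.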

How the data were processed

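Single-cell libraries of mouse hepatocytes, 1 per time point, were enriched by hybrid capture for a 64-gene panel. The deposited values are raw UMI counts per gene and barcode, which the authors made with Cell Ranger. The file headers and the submitters' processing notes give version 6.0.1, and the notes name mm10. In GENCODE M21, 6 of 64 panel genes share exon sequence with another gene on the same strand, so their counts are uncertain to that extent.

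The members and gene lists were chosen with earlier results of these data known. UMIs were summed per library and group of barcodes with Python 3.11.15, numpy 2.4.6, scipy 1.17.1 and pandas 2.3.3, and figures drawn with matplotlib 3.10.9. The scripts were tested on simulated counts. Levels are CPM with exact Poisson intervals, ratios between 2 sums have exact conditional binomial intervals, shares Clopper-Pearson intervals, and differences of 2 log2 ratios normal intervals, all at 95%. Counting error is all they cover. A single library stood for each time, which allows no test, and changes were called by fold among genes with at least 100 UMIs in the 2 sums compared. Genes were named if they stood on a fixed list with at least 100 UMIs in the pericentral barcodes, or were among the 3 largest changes either way at a fasted time, and 43 genes met this. No doublet caller was run, since the panel is too small for one, and leaving out the 5% of barcodes with most UMIs was an alternative. Other alternatives were the denominator, the UMI minimum, the score percentile, thinning to 300 UMIs and zones drawn from Gulo and Hsd17b13. Added after the data were seen were a common score cut, a denominator without the rule's genes, and zone counts with each library left out.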

Additional observations from a re-analysis of the deposited data

Results flagged for a closer look

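In 11 cases, over 8 genes, the level in CPM moved one way from the fed library in the pericentral barcodes and the other way at the periportal end. These differences were not tested, since each time point is a single library. Given as pericentral minus periportal log2 change, they were as follows. Nr0b2 differed by -1.35 at 8 h. Cyp8b1 differed by 1.17 at 16 h and 0.94 at 24 h. Hsd17b13 differed by -0.49 at 16 h and -0.76 at 30 h. Gulo differed by -0.47 and Scd1 by 0.28 at 8 h. Igf1 differed by 0.19 at 16 h and Hsd3b7 by 0.17 at 24 h. Fads1, a fatty acid desaturase named here after its values were seen, differed by 0.29 at 16 h and 0.17 at 24 h. Without Alb in the denominator 4 of the 11 kept opposite directions in the same order, namely Nr0b2 at 8 h, Cyp8b1 at 16 h and Hsd17b13 at 16 and 30 h. In 6 others both zones then moved the same way, and for Igf1 the order turned. As UMIs per barcode, Nr0b2 at 8 h, Cyp8b1 at 16 h and Hsd17b13 at 16 h were below the fed level in both zones. Hsd17b13 at 30 h still moved in opposite directions per barcode. It stood at 1.98 against 2.06 at 0 h in the pericentral barcodes and at 8.94 against 5.40 at the periportal end.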

How the results depend on the processing

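Of the 66 changes past 2-fold from 0 h in named genes, all kept their direction under 10 of 11 alternatives. With a common score cut of 3, 64 did, and Cyp2f2 turned to 0.22 at 24 h and 0.18 at 30 h. The alternative without a gene minimum cannot change a gene's ratio, so its outcome here was fixed in advance. Between 56 (UMIs per barcode) and 66 stayed past 2-fold. Counts per barcode gave 3 genes higher and 23 lower at 8 h, 17 lower at 16 h and 6 higher at 24 h, and the denominator without the 4 rule genes also gave 6 higher at 24 h. Differences in change past 1 numbered 4 at 8 h without Alb, per barcode, without a gene minimum, at the 90th percentile, without the rule genes and with a common cut, and 6 with 500 or more UMIs. At 16 h they numbered 1 without Alb, by median-of-ratios scaling and without the rule genes, 4 without a gene minimum and with thinned zones, and 0 with 500 or more UMIs and with zones from Gulo and Hsd17b13. At 24 h they numbered 7 without a gene minimum and 1 with thinned zones and with zones from Gulo and Hsd17b13, and at 30 h 5 and 0 in the same order. Against the periportal end, 5 genes were higher without the 8 h library, and 2 were lower at the 90th percentile. Differences in change that turned sign were Hsd3b7 at 24 h (-0.14 without Alb, -0.14 by median-of-ratios, -0.15 at the 90th percentile, -0.46 with a common cut), Fads1 at 24 h (-0.14, -0.14, -0.10 and -0.12 in that order), Igf1 at 16 h (-0.049 without Alb, -0.088 by median-of-ratios) and Hsd17b13 at 16 h (0.066 with a common cut). The cause was not tested. No paired analysis was possible because each time point is 1 library. Depth limits the 8 h library most.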
